A study of Homo sapiens with 15 samples.

Results

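The genes described here are the human proteasome subunits and their dedicated helpers, taken as every row of 2 tables of normalized RNA-seq values whose symbol is PSM, a letter from A to G and a number. The rule found 48 genes. The knockout table of 17769 genes listed 46 of them and the resistance table of 60510 genes listed all 48. They were divided by role into 14 core 20S subunits, 17 subunits of the 19S cap, 7 assembly chaperones, 5 immunoproteasome genes, 3 other activators or inhibitors and 2 tissue-restricted 20S subunits.

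All 15 libraries came from K562, an established BCR-ABL1-positive cell line from chronic myeloid leukemia. The knockout table held 3 libraries each of HSP90α-KO, of HSP90β-KO and of empty vector (EV) control cells, all from untreated cells carrying Cas9 and a lentiviral guide construct, sorted by fluorescence and, per the labels, selected as single clones. The resistance table held 3 PUHr libraries, from wild-type cells grown for a long time in rising amounts of the HSP90 inhibitor PU-H71 and selected as clones, and 3 parental libraries kept in DMSO in parallel. A knockout or resistance and the choice of clone cannot be told apart in these groups, and although the study calls its replicates independent, no source used here says that they were separate cultures, so p-values measure the spread between these libraries only. The HSP90α-KO and HSP90β-KO comparisons share the EV libraries.

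The proteasome is the protease that breaks down ubiquitin-tagged proteins. Its core particle, the 20S, is a barrel of alpha rings, which gate the entrance, and beta rings, which carry the cutting sites. The 19S cap binds ubiquitin, unfolds the substrate with a ring of ATPases and feeds it into the barrel, and assembly chaperones put the parts together. After interferon signalling, cells can swap the cutting subunits PSMB5, PSMB6 and PSMB7 for PSMB8, PSMB9 and PSMB10 and add the PSME1 and PSME2 activator, which together form the immunoproteasome and favour peptides for display on MHC class I. HSP90 is a chaperone of many client proteins, and cells under proteotoxic stress are known to raise proteasome genes through the transcription factor NRF1 (NFE2L1).

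The depth was even, at 19594381 to 26216730 reads on genes per library, and 1 read was worth 0.0381 to 0.0518 CPM. CPM, the unit of level used here, scales a gene's reads to the library's total as adjusted by the normalization of the deposited values. K562 markers were present in every library, for example GATA1 at 144 CPM or more and TFRC at 340 CPM or more. Markers of B cells (CD79A, at most 0.555 CPM) were near 0, while the epithelial markers EPCAM, at 25.4 to 78.1 CPM, and KRT8, at 232 to 740 CPM, were expressed. HSP90AA1, the gene for HSP90α, stood at 716, 683 and 713 CPM in EV and at 92.6, 88.0 and 90.8 CPM in HSP90α-KO. HSP90AB1, the gene for HSP90β, stood at 2823, 2782 and 2812 CPM in EV and at 1939, 1909 and 1889 CPM in HSP90β-KO. Each targeted transcript was thus lower in its own knockout, the first by 2.96 and the second by 0.55 on the log2 scale. In PUHr, HSP90AA1 differed from parental by -0.13 and HSP90AB1 by -0.24 (log2).

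Taken as a sum over the 46 members of the knockout table, proteasome transcripts amounted to 5414 ± 42.5 CPM in EV (SD, n = 3), 5390 ± 78.5 CPM in HSP90α-KO and 5679 ± 29.0 CPM in HSP90β-KO. The 3 HSP90β-KO libraries lay above the EV and HSP90α-KO libraries, which overlapped. In the resistance table the sum over the 48 members was 7545 ± 59.8 CPM in parental and 6966 ± 93.9 CPM in PUHr, without overlap. The 2 tables were normalized separately, so levels are compared within a table only. Because these were bulk libraries, fewer cells expressing a gene and less RNA per cell cannot be told apart.

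**Figure D1:**
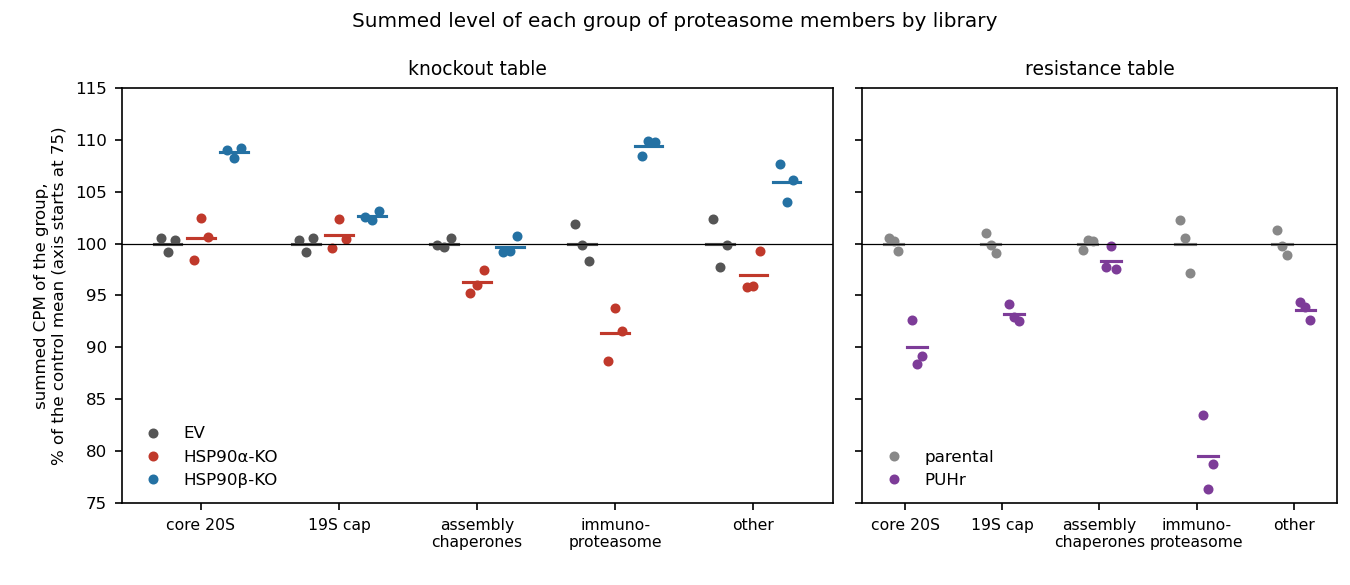
Summed CPM of each group of proteasome members in each library, as percent of the control mean (EV on the left, parental on the right), with points for libraries and bars for group means; the axis starts at 75. The core 20S sum sits at 109% of control in HSP90β-KO and 90.1% in PUHr. The immunoproteasome sum sits at 91.4% in HSP90α-KO, 109% in HSP90β-KO and 79.5% in PUHr. PSME1 and PSME2 make up most of that sum, at 80.8 and 90.8 of 187 CPM in EV. PSMB8 and PSMB9 add 0.236 and 0.642 CPM there, so the sum does not follow them.

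Within the barrel, levels per transcript length differed widely. In EV the core 20S members ran from 3.44 CPM per kilobase for PSMA2 to 219 CPM per kilobase for PSMB4, with a median of 95.9 over the 11 members that do not share exons with another gene. PSMA2, PSMA6 and PSMA1, all subunits of the alpha ring, share 100%, 81.4% and 67.0% of their transcripts with a read-through gene on the same strand. PSMA2 at 3.44 and PSMA6 at 10.5 CPM per kilobase were the lowest of the 14. How shared reads were counted is not given in the sources used here, and the part of it in these levels was not tested. The values of PSMA1, PSMA2, PSMA6, PSMB10 (56.1% shared) and PSMD9 (28.8% shared) are uncertain for this reason.

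In HSP90α-KO, proteasome genes moved in both directions by small amounts. Of the 46 members tested, 14 were higher and 12 lower than in EV at an adjusted p under 0.05 (limma on the log2 values, Benjamini-Hochberg over 17039 genes). Over all genes tested, 27.5% were higher and 26.6% lower, so the members' shares were close to the background. Of the 39 members with a mean log2 CPM of at least 5, 12 were higher and 11 lower, while 38.7% of equally abundant genes were higher and 27.5% lower. The median log2 fold change of the members was -0.04, beside -0.01 over all genes. Quantile normalization turned the split to 7 higher and 20 lower, and over all genes to 25.1% higher and 27.9% lower. The calls were 17 with a variance model that ignores expression level, under which 25% of all genes were higher and 24.1% lower.

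In HSP90β-KO the changes were mostly upward. Of 46 members, 19 were higher and 1 was lower, against 17.2% of all genes higher and 17.2% lower. The median was 0.08, beside 0.00 over all genes. Centring each library on its median gene gave 14 higher and 3 lower members, with 12.5% of all genes higher and 21.6% lower. Of the 39 members with a mean log2 CPM of at least 5, 17 were higher, beside 23.7% of the equally abundant genes.

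PUHr showed the opposite tilt. Of 46 members tested, 30 were lower and 3 higher than in parental, against 25.8% of all genes lower and 25.6% higher over 16503 genes. The median was -0.11, beside 0.00 over all genes. Among the 40 members with a mean log2 CPM of at least 5, 27 were lower and 3 higher, while 35.9% of all equally abundant genes were lower and 27% higher. Testing all 60510 rows without a filter on low values left 15 members called, 14 of them lower, where 4.65% of all rows were higher and 5.01% lower. The variance model without a trend left 20, 19 of them lower, beside 22.4% of all genes higher and 22.0% lower. PSMB8 passed the low-value filter only through the groups where it was high, against EV and in PUHr, and PSMB9 did so in PUHr. PSMB9 reached the filter in every library of the knockout table. Without both genes, the counts were 12 higher and 12 lower in HSP90α-KO, 17 and 1 in HSP90β-KO, and 3 and 28 in PUHr, each of 44.

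Few members changed much. Beyond a log2 fold change of 1 with an adjusted p under 0.05 stood 1 member in HSP90α-KO, where 10.3% of all genes did, 2 in HSP90β-KO, beside 4.48%, and 2 in PUHr, beside 10.1%. These were PSMB8 in each case and PSMB9 in the last 2, so apart from PSMB9 in HSP90β-KO they had entered the test through the high group. The 3 libraries of a group lay all above or all below control for 11 and 15 members in HSP90α-KO (29.0% and 28.3% of all genes), for 24 and 2 in HSP90β-KO (23.5% and 23.1%), and for 4 and 30 in PUHr (29.2% and 29.3%).

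**Figure D2:**
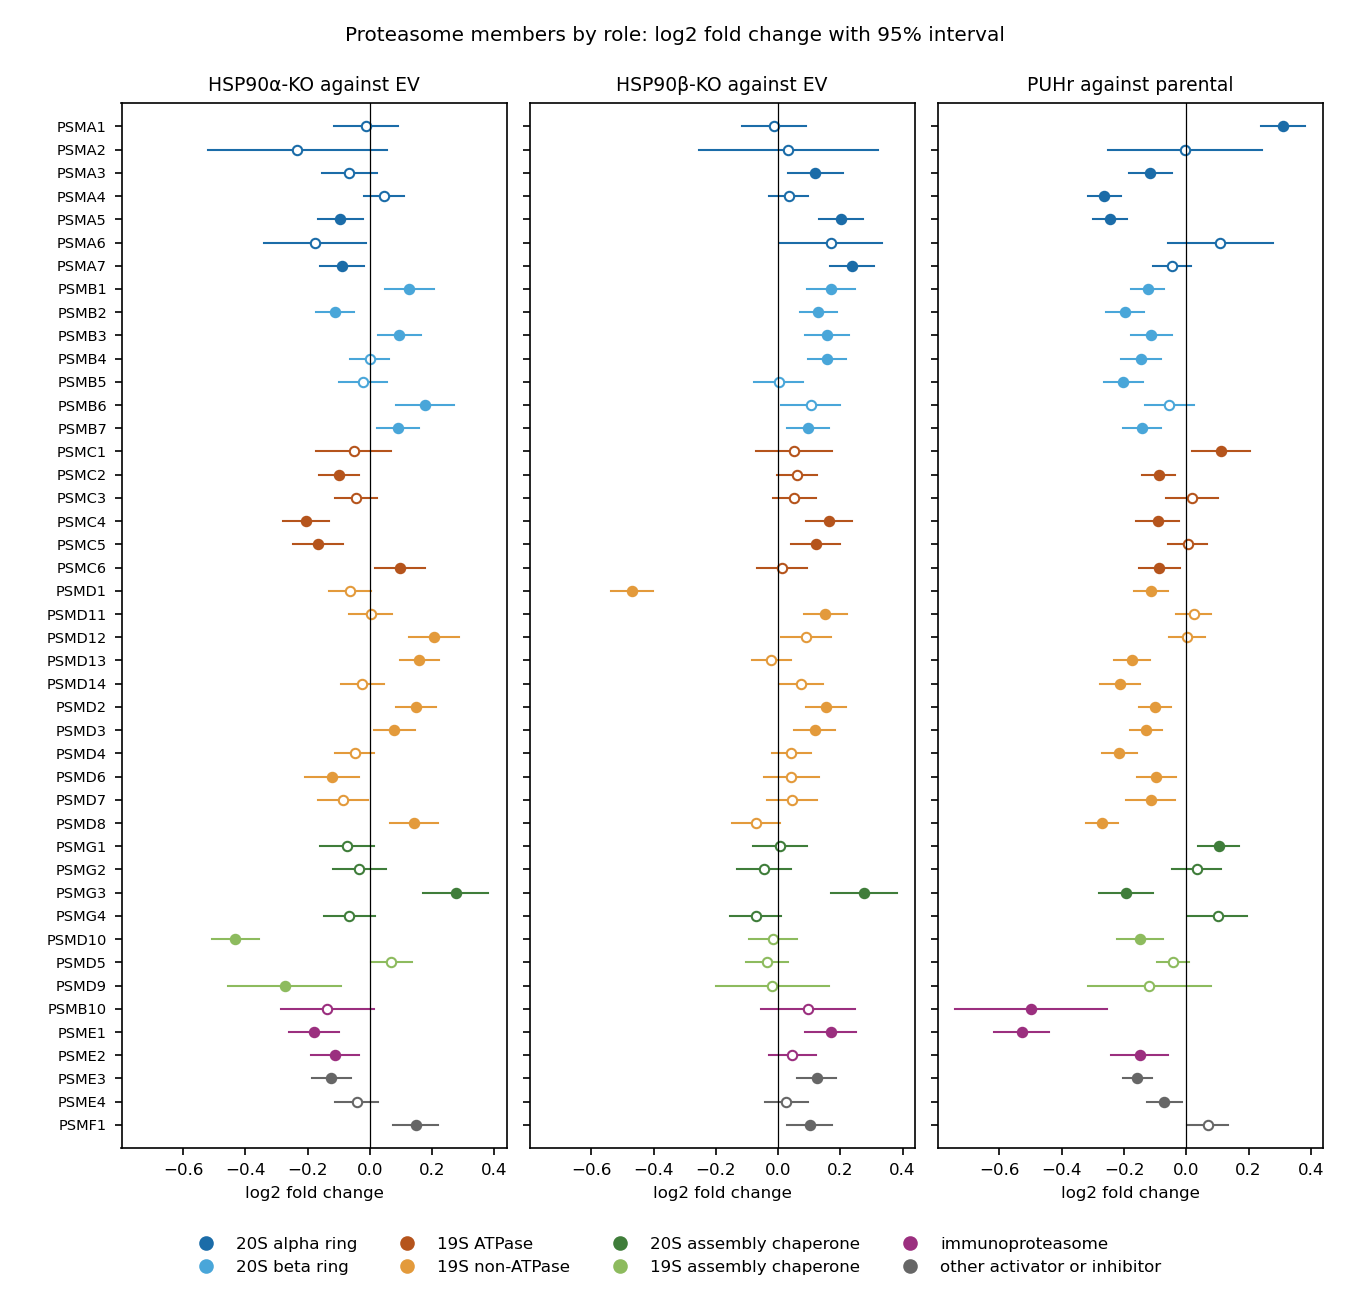
Log2 fold change (x axis) of 44 proteasome members, coloured by role, in the 3 comparisons with a control, with lines for the 95% interval and filled points for an adjusted p under 0.05; PSMB8 and PSMB9 are left out because their changes exceed the axis. Most points in HSP90β-KO lie right of 0 apart from PSMD1 at -0.47, and most in PUHr lie left of 0 apart from PSMA1 at 0.31.

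The alpha ring, which gates the core, had no higher member in HSP90α-KO and 2 lower of 7, PSMA5 and PSMA7, a share close to that of all genes. Counts of so few members are a description of each part and were not tested against the all-gene shares given above. In HSP90β-KO it had 3 higher, PSMA3, PSMA5 and PSMA7, and none lower. PSMA7 stood at 92.3, 93.3 and 91.2 CPM in EV, 87.2, 88.1 and 84.7 CPM in HSP90α-KO and 110, 107 and 110 CPM in HSP90β-KO. The 3 groups did not overlap, with HSP90α-KO lowest and HSP90β-KO highest. The change was 0.24 ± 0.03 (log2, SE, adjusted p = 3.6e-06, limma) in HSP90β-KO and -0.09 ± 0.03 (adjusted p = 0.029) in HSP90α-KO. PSMA5 rose by 0.20 in HSP90β-KO and fell by 0.09 in HSP90α-KO.

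In PUHr, PSMA3, PSMA4 and PSMA5 of the alpha ring were lower and PSMA1 was higher. PSMA4 stood at 322, 327 and 325 CPM in parental and at 276, 273 and 263 CPM in PUHr, a change of -0.26 ± 0.02 (adjusted p = 4.9e-07). PSMA1 stood at 57.6, 59.4 and 57.6 CPM in parental and at 72.2, 73.4 and 71.0 CPM in PUHr, a change of 0.31 ± 0.03 (adjusted p = 2.1e-06). All PUHr libraries lay below parental for PSMA4 and above for PSMA1, whose 40 nearest tested genes on chromosome 11 had a median of 0.11. PSMA1 was the largest rise among the members in this comparison, and it is one of those that share exons with a read-through gene, listed at 0 reads in all 6 libraries.

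The beta ring, home of the cutting sites, had 5 of 7 members higher in HSP90β-KO (PSMB1, PSMB2, PSMB3, PSMB4 and PSMB7) and none lower. In HSP90α-KO, 4 were higher (PSMB1, PSMB3, PSMB6 and PSMB7) and PSMB2 was lower. PSMB1 stood at 174, 172 and 170 CPM in EV, 174, 200 and 192 CPM in HSP90α-KO and 196, 193 and 192 CPM in HSP90β-KO. Replicate 1 of HSP90α-KO lay at the EV level, so that group overlapped EV while HSP90β-KO did not. Its change was 0.17 ± 0.04 in HSP90β-KO (adjusted p = 0.0009) and 0.13 ± 0.04 in HSP90α-KO (adjusted p = 0.0066).

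Of the constitutive cutting subunits, PSMB6, the caspase-like one, rose by 0.18 in HSP90α-KO, with 68.8, 73.3 and 69.7 CPM in EV and 80.2, 84.9 and 74.6 CPM in the knockout (adjusted p = 0.0019). PSMB7, the trypsin-like one, differed from EV by 0.09 in both knockouts, calls that were lost in 5 and 6 of 21 alternative analyses. PSMB5, the chymotrypsin-like subunit that bortezomib binds, differed by -0.02 and 0.00 without passing the test in either. In PUHr 6 of the 7 beta subunits were lower, PSMB6 being the one not called at -0.05. PSMB5 stood at 147, 148 and 144 CPM in parental and at 130, 123 and 128 CPM in PUHr, a fall of 0.20 on the log2 scale (adjusted p = 3.7e-05) in which no library overlapped.

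The ATPases of the 19S base, which unfold substrates, were lower in 3 of 6 cases in HSP90α-KO (PSMC2, PSMC4 and PSMC5) and higher in 1 (PSMC6). In HSP90β-KO PSMC4 and PSMC5 were higher and none was lower. PSMC4 stood at 116, 116 and 121 CPM in EV, 106, 104 and 97.4 CPM in HSP90α-KO and 132, 130 and 134 CPM in HSP90β-KO, so the 3 groups were separate. The changes were -0.20 ± 0.04 (adjusted p = 2.9e-05) and 0.16 ± 0.04 (adjusted p = 0.0008). In PUHr 3 ATPases were lower (PSMC2, PSMC4 and PSMC6) by 0.09 each and PSMC1 was higher by 0.11. The PSMC1 call was lost in 8 of 17 alternative analyses, 83.2% of its transcript overlaps a gene on the opposite strand, and its neighbours on chromosome 14 had a median of 0.12.

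Among the 11 other cap subunits, the scaffold and ubiquitin-handling parts, 5 were higher and 1 lower in HSP90α-KO. PSMD12, a subunit of the lid, stood at 117, 113 and 119 CPM in EV and at 128, 133 and 143 CPM in HSP90α-KO (0.21 ± 0.04, adjusted p = 6.9e-05). PSMD13, also of the lid, rose by 0.16, or by 0.09 after quantile normalization. In HSP90β-KO 3 were higher, PSMD2, PSMD3 and PSMD11, by 0.12 to 0.15.

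PSMD1, a large scaffold subunit of the base, was the only member lower in HSP90β-KO. It stood at 175, 166 and 173 CPM in EV and at 126, 121 and 125 CPM in HSP90β-KO, far apart, with a change of -0.47 ± 0.03 (adjusted p = 7.9e-12). It lies at chr2:231056845-231173116 (GRCh38, plus strand), and in the same comparison its 40 nearest tested genes showed a median change of -0.66 (log2), with quartiles of -0.86 and -0.51. In HSP90α-KO it stood at 163, 161 and 168 CPM and was not called (-0.06), while its neighbours had a median of 0.14.

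In PUHr 9 of these 11 cap subunits were lower and none was higher. PSMD8, a lid subunit, stood at 227, 224 and 226 CPM in parental and at 186, 187 and 189 CPM in PUHr (-0.27 ± 0.02, adjusted p = 2.3e-07), the steepest fall among the cap members. PSMD4, the ubiquitin receptor, fell by 0.22 and PSMD14, the deubiquitinase of the lid, by 0.21. PSMD11 and PSMD12 were not called, at 0.02 and 0.00.

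The assembly chaperones did not move as a block. PSMG3, one of the chaperones that build the alpha ring, rose by 0.28 in both knockouts (adjusted p = 5.3e-05 in HSP90α-KO and 0.0001 in HSP90β-KO). It stood at 39, 42 and 38.7 CPM in EV, at 48.9, 51.1 and 45.0 CPM in HSP90α-KO and at 46.1, 50.3 and 48.7 CPM in HSP90β-KO, with both knockouts above EV in every library. In PUHr it fell by 0.19, and PSMG1, another ring-building chaperone, rose by 0.10, a call lost in 4 of 17 alternatives.

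PSMD10, the 19S chaperone also known as gankyrin, had the largest fall in HSP90α-KO. It stood at 96.0, 96.7 and 95.1 CPM in EV, 69.7, 72.2 and 71.4 CPM in HSP90α-KO and 90.8, 97.5 and 96.6 CPM in HSP90β-KO. HSP90α-KO lay below the others in all libraries, with a change of -0.43 ± 0.04 (adjusted p = 1.6e-10). PSMD10 lies at chrX:108084207-108091549 (minus strand), and its 40 nearest tested genes had a median of -0.85 in HSP90α-KO, with quartiles of -1.07 and -0.33. PSMD9, another 19S chaperone, fell by 0.27 in HSP90α-KO (adjusted p = 0.011), a call lost without replicate 3 of that group.

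**Figure D3:**
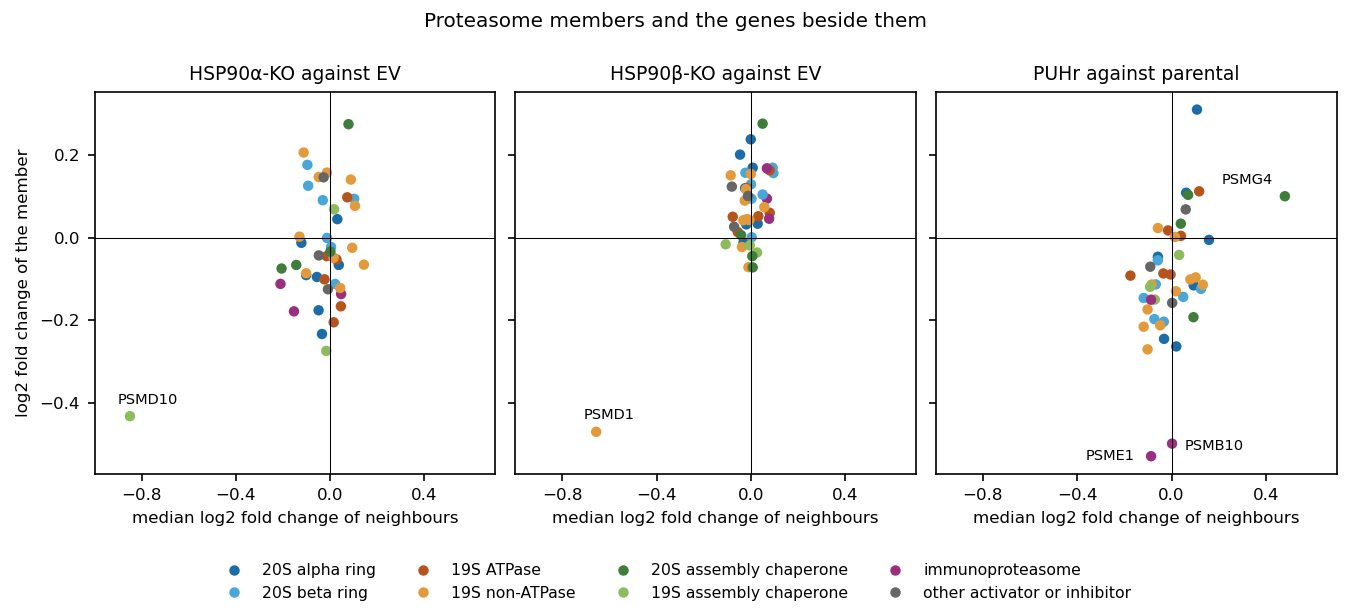
Log2 fold change of 44 members (y axis) against the median log2 fold change of up to 40 nearest tested genes on the same chromosome (x axis), coloured by role, in the 3 comparisons with a control. PSMD10 in HSP90α-KO and PSMD1 in HSP90β-KO lie far to the lower left, with neighbour medians of -0.85 and -0.66, while PSME1 and PSMB10 in PUHr fell with neighbour medians of -0.09 and 0.00.

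Across the 44 members other than PSMB8 and PSMB9, a member's change and its neighbours' median were related by Pearson's r of 0.44 in HSP90α-KO, 0.71 in HSP90β-KO and 0.43 in PUHr, with Spearman's rho of 0.17, 0.28 and 0.45. These describe members that share libraries and in part neighbours. The part of chromosomal position in the members' changes was not tested.

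The activators and inhibitors outside the immunoproteasome split in HSP90α-KO. PSME3, the nuclear activator PA28γ, was lower in HSP90α-KO at 202, 200 and 206 CPM, higher in HSP90β-KO at 243, 235 and 243 CPM, and in between in EV at 223, 215 and 224 CPM. None of the 3 groups overlapped, and the changes were -0.12 and 0.12. PSMF1, the inhibitor PI31, rose in both knockouts by 0.15 and 0.10. In PUHr PSME3 fell by 0.16 and PSME4, the activator PA200, by 0.07.

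Among the immunoproteasome genes, PSMB8 and PSMB9 had the largest fold changes of all members, at few reads. PSMB8, which replaces PSMB5, was near the limit of detection in EV, at 0.238, 0.241 and 0.229 CPM, or 5 to 6 reads a library. It stood at 1.22, 0.881 and 0.513 CPM (10 to 25 reads) in HSP90α-KO and at 1.96, 2.09 and 1.23 CPM (31 to 49 reads) in HSP90β-KO. Every knockout library lay above every EV library, and the lowest HSP90β-KO value was just above the highest HSP90α-KO value. The differences were 1.49 ± 0.29 and 2.47 ± 0.29, given as a description with no test because the gene passed the filter through the knockouts, on a log2 scale with a prior of 1.75 to 2.37 reads added, which understates changes at such depth.

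In the resistance table PSMB8 went the other way. Parental libraries held 2.71, 2.18 and 2.39 CPM (51 to 64 reads), and PUHr libraries 0.0402, 0.0418 and 0 CPM, which is 0 or 1 read each. Taking 3 reads a library as the floor, PSMB8 was at least 19.2-fold lower in PUHr, again a description. Reads and floors here cover counting error only.

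PSMB9, which replaces PSMB6, stood at 0.428, 0.964 and 0.534 CPM in EV, 1.51, 1.61 and 0.821 CPM in HSP90α-KO and 2.67, 2.56 and 2.57 CPM in HSP90β-KO. HSP90α-KO overlapped EV through its replicate 3, and HSP90β-KO lay above all others. The changes were 0.95 ± 0.26 (adjusted p = 0.0026) and 1.95 ± 0.26 (adjusted p = 8.4e-07). At such low levels they depend on the pseudocount, and with 5 CPM added they were 0.16 and 0.43 for PSMB9 and 0.16 and 0.37 for PSMB8. In PUHr PSMB9 stood at 0.120, 0.418 and 0.267 CPM (3 to 10 reads), below 0.930, 0.797 and 1.36 CPM in parental, a difference of -1.72 ± 0.34. PSMB9 was tested there only because parental was high, and its call was lost when no low-value filter was used.

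PSMB10, which replaces PSMB7, did not pass the test in either knockout (-0.14 and 0.09), although all HSP90α-KO libraries lay below EV. In PUHr it stood at 4.1, 3.81 and 3.47 CPM against 5.11, 5.45 and 5.58 CPM in parental, a fall of 0.50 ± 0.11 (adjusted p = 0.0019), or of 0.24 with a pseudocount of 5 CPM. The read-through gene that shares its exons held 73 to 93 reads there, beside 78 to 130 reads for PSMB10 itself.

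PSME1 and PSME2, the subunits of the PA28 activator ring, are expressed far above the immune cutting subunits. PSME1 stood at 81.6, 82.5 and 78.3 CPM in EV, 68.6, 73.5 and 72.1 CPM in HSP90α-KO and 88.3, 93.6 and 90.5 CPM in HSP90β-KO. The 3 groups were separate, with changes of -0.18 ± 0.04 (adjusted p = 0.00038) and 0.17 ± 0.04 (adjusted p = 0.0013). In PUHr it fell from 58.4, 55.2 and 54.4 CPM to 39.8, 38.0 and 38.5 CPM (-0.53 ± 0.04, adjusted p = 5.8e-08). PSME2 fell by 0.11 in HSP90α-KO, differed by 0.05 in HSP90β-KO without passing the test, and fell by 0.15 in PUHr. Its PUHr call was lost in 2 of 17 alternatives, those with no low-value filter and with no variance trend. Its HSP90α-KO call was lost in 2 of 21. The 40 nearest tested genes in HSP90α-KO had a median of -0.15 for PSME1 and -0.21 for PSME2.

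**Figure D4:**
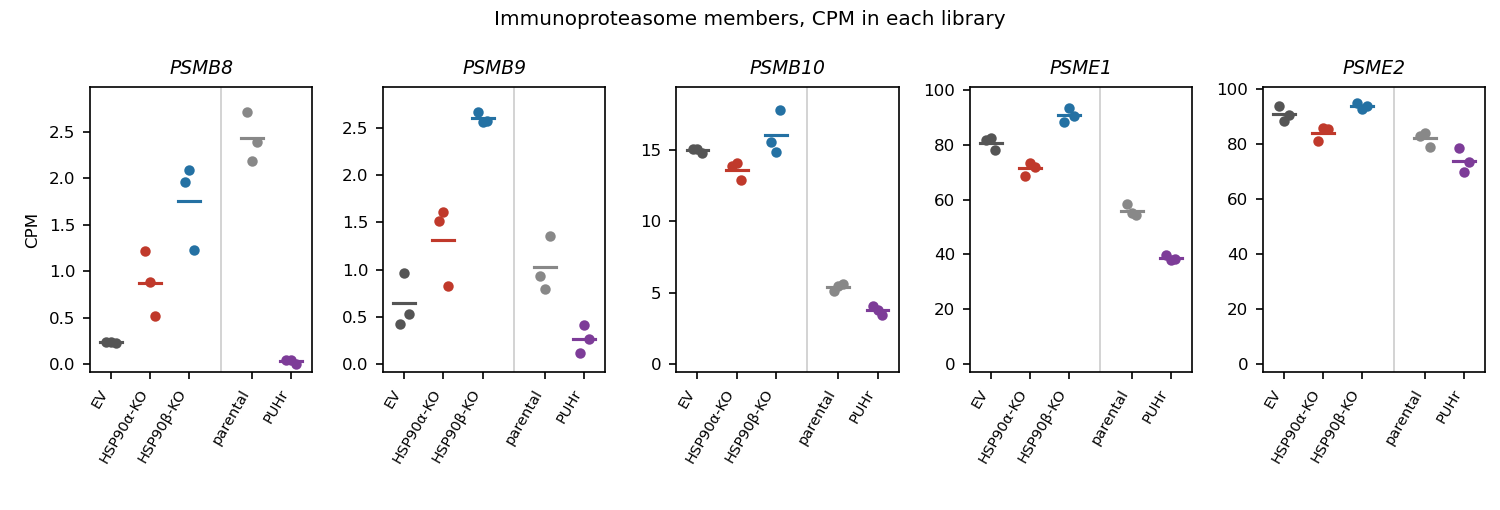
CPM of the 5 immunoproteasome genes in each of the 15 libraries on linear axes, with points for libraries and bars for group means; the grey line parts the tables, which were normalized separately. Within the knockout table the means of PSMB8 and PSMB9 are lowest in EV and highest in HSP90β-KO, and all 5 genes lie lower in PUHr than in parental.

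PSMB10, PSME1 and PSME2 were thus lower in PUHr, and PSMB8 and PSMB9 stood below parental in every PUHr library. Leaving PSMB8 aside, PSMB9 and PSME1 were higher in HSP90β-KO and none of these genes was lower. In HSP90α-KO PSMB9 was higher, and PSME1 and PSME2 were lower. The exchange of cutting subunits was also followed within libraries as the log2 difference of each immune subunit and its constitutive counterpart. For PSMB8 and PSMB5 it was -7.87 ± 0.01 in EV (SD, n = 3), -6.36 ± 0.55 in HSP90α-KO and -5.40 ± 0.39 in HSP90β-KO. With 0 or 1 read of PSMB8 the PUHr value would be set by the prior and is not given. These PSMB8 values are a description with no test. The EV value rests on 5 to 6 PSMB8 reads a library and is also shifted by the prior. Its SD of 0.01 does not cover counting error. The difference of PSMB9 and PSMB6 departed from EV by 0.78 in HSP90α-KO and 1.84 in HSP90β-KO (exact two-sided permutation p = 0.2 and 0.1), and that of PSMB10 and PSMB7 differed by -0.23 and 0.00 (exact p = 0.1 and 1) and by -0.36 in PUHr (exact p = 0.1). With 3 against 3 libraries this test cannot go below 0.1, so it could not pass a threshold of 0.05.

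Upstream sequences were inspected because the immunoproteasome genes stood below parental together in PUHr. RefSeq promoter windows (GRCh38.p14), each 250 bases before to 50 bases after a start site, were at hand for 42 of the 48 members in 51 windows, since some have several starts. PSMA7, PSMB1, PSMB6, PSMB7, PSMD4 and PSMG3 had no entry. The letters GAAA, then any 2 bases, then GAAA again, a core of interferon response elements, were found on either strand in 7 of the 51 windows, beside 3.57% of all 35116 windows of the same length. The 7 genes were PSMA4, PSMB4, PSMB8, PSMB10, PSME1, PSME2 and PSMG4. The 4 immunoproteasome genes with a match are shown with 10 bases on each side and the match in capitals, read along the gene. The PSMB8 match is at chr6:32844042-32844051, PSMB10 at chr16:67936862-67936871, PSME1 at chr14:24136199-24136208 and PSME2 at chr14:24146629-24146638.
PSMB8: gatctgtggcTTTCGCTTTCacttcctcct
PSMB10: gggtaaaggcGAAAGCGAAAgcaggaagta
PSME1: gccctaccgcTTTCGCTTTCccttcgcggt
PSME2: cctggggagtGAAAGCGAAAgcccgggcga

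All 4 matches carried the same 10 bases, on the minus strand relative to the gene in PSMB8 and PSME1. The PSMB8 match begins 4 bases before the start and runs past it, and the PSME1 match begins 5 bases after the start. The PSME2 match begins 28 bases before the start. PSMB8 also held TTCNNNGAA, the palindrome of interferon-gamma-activated (GAS) elements, 65 bases before the start, as did 8 of the 51 windows and 7.66% of all windows. The 250 bases before the PSMB10 start (chr16:67936851-67937100, minus strand) are given because they hold its whole interferon-type match, 21 bases before the start. Those before the PSMB9 start (chr6:32853942-32854191, plus strand) are given because PSMB9 moved with PSMB8 yet held neither of these motifs in its window. The capitals in PSMB9 mark a match to TGACNNNGC, the core of antioxidant response elements, which NRF1 and NRF2 bind.
PSMB10: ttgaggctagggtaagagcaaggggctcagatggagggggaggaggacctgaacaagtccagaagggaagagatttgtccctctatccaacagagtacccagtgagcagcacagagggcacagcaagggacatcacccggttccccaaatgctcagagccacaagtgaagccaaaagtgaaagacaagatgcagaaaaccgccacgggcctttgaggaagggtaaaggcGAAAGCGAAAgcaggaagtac
PSMB9: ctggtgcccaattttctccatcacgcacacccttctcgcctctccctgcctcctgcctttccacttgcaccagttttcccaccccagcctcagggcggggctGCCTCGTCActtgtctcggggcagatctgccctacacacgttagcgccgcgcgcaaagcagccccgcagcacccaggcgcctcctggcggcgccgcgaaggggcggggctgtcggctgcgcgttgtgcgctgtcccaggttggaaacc

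The letters TGACNNNGC were found on either strand in 15 of the 51 windows and in 13.3% of all windows. It was found in 15 of the 42 genes with a window, and in 9 of the 26 of these that were called lower in PUHr. The matches of 4 subunits are shown because they lie in members of each main part that were called, 2 of the core and 2 of the cap, at chr15:78540660-78540668 (PSMA4), 104 bases before the PSMB3 start, 37 bases before the PSMD3 start and 165 bases before the PSMD12 start.
PSMA4: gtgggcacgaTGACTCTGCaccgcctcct
PSMB3: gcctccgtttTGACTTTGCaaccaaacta
PSMD3: tcccctttgtTGACTCGGCcatcggcctg
PSMD12: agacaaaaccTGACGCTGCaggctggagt

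CCAAT, the box bound by NF-Y, was found in 20 of the 51 windows and in 34.6% of all windows. GAANNTTC, a core of heat shock elements, was found in none of the 51 and in 6.77% of all windows. Windows of different starts of a gene can overlap, matches of different motifs may overlap too, and a match is a description of letters, not a bound site.

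HSP90α-KO was also compared with HSP90β-KO directly, which tests whether the knockouts differed. Of 46 members, 5 were higher and 23 lower in HSP90α-KO than in HSP90β-KO, against 30.1% of all genes higher and 29.8% lower. The median was -0.10, beside -0.01 over all genes. Centring on the median gene gave 8 higher and 19 lower members, with 33.7% of all genes higher and 26.0% lower. All 5 immunoproteasome genes were lower in HSP90α-KO, as were 6 of 14 core 20S members with none higher, and 9 of 17 cap members with 4 higher.

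The largest gaps among abundant members were in PSMD10 (-0.42 ± 0.04, adjusted p = 2.3e-10) and PSMD1 (0.41 ± 0.03, adjusted p = 3.7e-11), whose neighbours differed by -0.66 and 0.81. PSMC4 (-0.37), PSME1 (-0.35) and PSMA7 (-0.33) followed, each with no overlap between the 3 libraries of one knockout and those of the other. PSMB8 and PSMB9 differed by -0.98 ± 0.29 and -0.99 ± 0.26 (adjusted p = 0.0048 and 0.0016). PSMG3, raised in both knockouts, did not pass the test between them (adjusted p = 0.985), with a 95% interval reaching 0.105 to either side of its estimate.

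Other genes of the pathway are given by the same counts, to be set against the all-gene shares of each comparison (27.5% higher and 26.6% lower in HSP90α-KO, 17.2% and 17.2% in HSP90β-KO, 25.6% and 25.8% in PUHr). The lists hold 9 to 15 tested genes each, and none was tested as a list. Partners of the proteasome outside the PSM names had 4 higher and 1 lower of 11 in HSP90α-KO, 1 and 0 in HSP90β-KO, and 1 and 3 in PUHr. AKIRIN2, which brings proteasomes into the nucleus, rose by 0.22 in HSP90α-KO, where UCHL5, a deubiquitinase of the cap, rose by 0.15 and the scaffold ECPAS fell by 0.16. ZFAND5, a proteasome-activating factor, rose by 0.11 in HSP90β-KO. UBE3C, a proteasome-bound ubiquitin ligase, rose by 0.18 in HSP90α-KO and fell by 0.20 in PUHr, where PAAF1, a cap assembly factor, fell by 0.19, UCHL5 by 0.17, and SEM1, a small lid subunit, rose by 0.07.

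The ubiquitin genes, activating enzymes and shuttle factors had 4 higher and 2 lower of 15 in HSP90α-KO, 2 and 0 in HSP90β-KO, and 1 and 10 in PUHr. In HSP90α-KO the VCP cofactor UFD1 fell by 0.35 and the shuttle factor UBQLN2 by 0.23, while the activating enzyme UBA6 rose by 0.22 and BAG6, a chaperone of misfolded proteins, by 0.14. In HSP90β-KO VCP, the segregase that extracts ubiquitin-tagged proteins, rose by 0.13 and UFD1 by 0.08. In PUHr UBQLN2 fell by 0.33, UBA1, the main activating enzyme, by 0.29, RPS27A, a ubiquitin fusion gene, by 0.27, and UBA6 by 0.16.

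The NRF1 axis, 9 genes that make, process or partner the factor, had 1 higher and 4 lower in HSP90α-KO, 2 and 1 in HSP90β-KO, and 1 and 5 in PUHr. NFE2L1 stood at 293, 308 and 302 CPM in EV and at 258, 254 and 250 CPM in HSP90α-KO (-0.24 ± 0.03, adjusted p = 7.5e-08), without overlap. NFE2L2, the gene for the related factor NRF2, stood at 89.5, 86.6 and 85.4 CPM in EV and at 166, 169 and 176 CPM in HSP90α-KO (0.97 ± 0.04, adjusted p = 4.5e-18), with no overlap either. It rose by 0.09 in HSP90β-KO and fell by 0.33 in PUHr.

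In HSP90α-KO the partner factor MAFG fell by 0.38 and SYVN1, a ubiquitin ligase of the endoplasmic reticulum, by 0.34. In HSP90β-KO the partner MAFK rose by 0.40 and FBXW7, a subunit of a ubiquitin ligase, fell by 0.19. In PUHr DDI2, the protease that activates NRF1, fell by 0.60, from a mean of 214 CPM to 141 CPM (adjusted p = 7.6e-11), NGLY1, the deglycosylase that processes NRF1, fell by 0.20, and FBXW7 rose by 0.30.

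For MHC class I presentation and interferon control, 4 of 13 genes tested were higher and 5 lower in HSP90α-KO, 3 and 6 in HSP90β-KO, and 4 and 3 of 14 in PUHr. HLA-B passed the filter through 1 group only in each comparison with a control. Without it they were 3 and 5 of 12 in HSP90α-KO and 3 and 6 of 12 in HSP90β-KO. In PUHr they were 3 and 3 of 13. TAP1, the peptide transporter gene that shares its promoter region with PSMB9, stood at 2.23, 1.93 and 1.75 CPM in EV, 2.20, 1.97 and 1.90 CPM in HSP90α-KO and 4.01, 4.22 and 3.68 CPM in HSP90β-KO. HSP90β-KO lay above the rest (0.98 ± 0.16, adjusted p = 1.3e-05), and HSP90α-KO, in which PSMB9 was higher, overlapped EV for TAP1 (0.04). In PUHr TAP1 fell from 4.78, 5.45 and 5.07 CPM to 2.13, 1.88 and 1.42 CPM (-1.47 ± 0.16, adjusted p = 1.8e-06).

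Other genes of that list moved in differing directions. In HSP90α-KO HLA-E, a non-classical MHC class I gene, rose by 1.23, while TAPBP, which loads peptides, fell by 0.98, B2M, the light chain of MHC class I, by 0.77 and ERAP2, a peptide-trimming enzyme, by 0.68. In HSP90β-KO IRF1, an interferon-responsive factor, rose by 0.27 and ERAP2 fell by 0.25. In PUHr IFNGR1, a subunit of the interferon gamma receptor, rose by 0.65, and B2M and HLA-E fell by 0.39 each.

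NLRC5 and HLA-B, chosen after their values were seen, stood higher in PUHr. NLRC5, the transactivator of MHC class I genes, was at 0.592, 0.755 and 0.704 CPM in parental and at 3.82, 3.72 and 4.0 CPM in PUHr (2.36 ± 0.17, adjusted p = 2.5e-08). HLA-B, a classical MHC class I gene, was at 0.254, 0.294 and 0.328 CPM in parental and at 1.53, 1.88 and 2.18 CPM in PUHr, a description with no test. It was at 0.143, 0.145 and 0.191 CPM in EV and at 0.537, 0.414 and 0.462 CPM in HSP90α-KO. In PUHr both lay in the direction opposite to that of PSMB8, PSMB9 and TAP1.

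PSMA8, the testis subunit of the alpha ring, and PSMB11, the thymus subunit of the beta ring, were listed only in the resistance table. PSMA8 had 0 reads in all 6 libraries and PSMB11 had 1 read in 1 PUHr library and 0 in the others, so neither was tested and both lay under the floor of 3 reads.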

How the data were processed

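Bulk mRNA of 15 K562 libraries was sequenced. Per the labels and the study's methods, the authors used FastQC, MultiQC, STAR, featureCounts and edgeR with hg38, and deposited log2 CPM values with a prior count. Versions, strand settings and the handling of reads shared between genes are not given in the sources used here.

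Reads were recovered from the deposited log2 values, at 19594381 to 26216730 reads per library. Of these values 100% came out whole, with a largest deviation from a whole number of 5.7e-06 reads. Rows without a gene identifier, 30 in the knockout and 114 in the resistance table, held at most 0.0304% and 0.0363% of reads and were left out. The headers of all parental libraries spell DMSO as DSMO and were matched to that group by the sample titles. Genes with log2 CPM of at least -1 in 3 or more libraries were tested with limma 3.58.1 (R 4.3.3, empirical Bayes with an intensity trend) on the deposited log2 values, with Benjamini-Hochberg adjustment over 17039 and 16503 genes. The steps were tested on simulated data. Python 3.11.15 made the summaries, and exact permutation tests served single values.

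The members and lists were chosen with earlier results of these data known. Named members were, per comparison with a control, up to 4 with the largest rise and 4 with the largest fall among those called with a mean log2 CPM of at least 1, every member called beyond a log2 fold change of 1, the immunoproteasome genes and their constitutive counterparts, and members near the floor. From each list, up to 4 called genes with the largest change were named per comparison with a control, under the same minimum level. Other members or genes given with values were chosen after their values were seen. Promoter sequences are from RefSeq (GRCh38.p14), and gene positions from GENCODE on GRCh38. The alternatives were other filters, scalings, pseudocounts, variance models, voom on the recovered reads, a replicate block and leaving out libraries. The result of 1 listed gene is not reported here.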

Additional observations from a re-analysis of the deposited data

How the results depend on the processing

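The number of members called in HSP90α-KO was 26, and it was 17 without the intensity trend (8 higher, 9 lower), 17 at an adjusted p under 0.01 (10 and 7) and 27 after quantile normalization (7 and 20), where the median became -0.0833. In HSP90β-KO the count of 20 became 17 and the median 0.0402 after centring on the median gene. The median was 0.0675 with a mean log2 CPM of at least 1. Over all alternatives other than leaving out libraries, the HSP90β-KO count ran from 15 to 22. Between the knockouts, the median was -0.15 after quantile normalization and -0.0546 after centring. In PUHr the count of 33 became 15 with no filter and 20 without the trend, and the median -0.0821 after quantile normalization and -0.16 after centring. The cause of these shifts was not tested.

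Leaving out each library gave 20 to 28 calls in HSP90α-KO, 17 to 22 in HSP90β-KO, 23 to 29 between the knockouts and 27 to 34 in PUHr, with medians of -0.05 to -0.02, 0.066 to 0.089, -0.11 to -0.08 and -0.12 to -0.10. Replicate numbers did not pair the libraries (same-number correlations from -0.048 to 0.045), and with the replicate block 25, 20, 28 and 34 members were called. The test with voom on recovered reads called 26, 20, 28 and 33.

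PSMB5, not called in HSP90β-KO at 0.00, became -0.00858 after quantile normalization, -0.0407 after centring and -0.0204 to 0.0147 when single libraries were left out, below 0 without replicate 3 of EV or replicate 2 of HSP90β-KO. Between the knockouts, PSMG3 was at 0.0418 after centring and at -0.0427 to 0.0498 without single libraries, and PSMB1 at -0.0875 to 0.0141, above 0 without replicate 1 of HSP90α-KO. Of the results on named members under alternatives, 1020 kept their direction and side of the threshold, 37 lost the call, 8 gained it and 9 changed sign. Single libraries decided the calls of PSMB7 in HSP90α-KO (lost without replicates 1 or 3 of EV or 2 of HSP90α-KO) and in HSP90β-KO (without 1 or 3 of EV or 1 or 3 of HSP90β-KO), of PSME2 in HSP90α-KO (without replicate 1 of either group), and of PSMC1 (without 1 or 3 of either group) and PSMG1 (without parental 3) in PUHr. Depth limits PSMB8 and PSMB9, which rest on 0 to 65 reads a library.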
